A study of Mus musculus with 43 samples.

Results

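The 3 genes described here are *Fezf1*, *Zfp831* and *Gpr149*, out of 10127 genes in the table. They were chosen for their values in this series, as the 3 genes with the largest log2 difference between the ventromedial hypothalamus (VMH) and the mean of the other captured nuclei, among genes whose mean in the VMH reached 5 CPM (read counts scaled to a common total, the unit of the table). The level in the VMH against the other nuclei is therefore given as a description, with no test. RNA-seq had been performed on 4 hypothalamic nuclei, the arcuate nucleus (ARC), dorsomedial hypothalamus (DMH), paraventricular nucleus (PVN) and VMH, which were cut from stained brain sections with a laser. All mice were C57/BL6 males of 17 to 19 weeks (strain as spelled in the labels, C57BL/6J in the study's methods). They carried the *Snord116* deletion on the paternal allele from birth on. They were either ad libitum fed or had gone without food for 24 hours. Each level is thus that of deletion mice, and wild-type libraries were not analysed here. The 41 libraries came from 12 mice, with 4 fasted and 5 fed libraries from the ARC, 5 and 6 from the DMH, 5 and 5 from the PVN, and 6 and 5 from the VMH. Libraries are called by nucleus and mouse, so that VMH-85 is the VMH of mouse 85.

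The VMH is a compact nucleus of the mediobasal hypothalamus whose neurons are mostly glutamatergic, and it is known for roles in energy balance, glucose regulation, and social and defensive behaviour. Its neurons are classically defined by the nuclear receptor steroidogenic factor 1, the product of *Nr5a1*, which was not analysed here. *Fezf1* encodes a zinc finger transcription factor of the embryonic forebrain that is needed for normal VMH development. *Zfp831* encodes a zinc finger protein of little known function. *Gpr149* encodes an orphan G protein-coupled receptor, one with no established ligand.

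Depth was 1.94 to 8.23 M reads (M, mega) per library, with a median of 4.10 M, so that 1 read was worth 0.121 to 0.515 CPM. The labels were checked against marker genes. The ARC genes *Npy* and *Crabp1* together averaged 660 CPM in the ARC and 7.14 CPM in the VMH. The DMH list (*Npvf*, *Hcrt*, *Pmch* and *Hmx2*) averaged 491 CPM in the DMH and 31.8 CPM in the VMH, of which *Pmch*, the melanin-concentrating hormone precursor, gave 28.3 CPM. *Avp* and *Crh*, peptide hormone genes of the PVN, averaged 837 CPM in the PVN and 1.97 CPM in the VMH. The ARC, DMH and PVN libraries were thus each highest for the list set for that nucleus. Most of the DMH sum came from *Pmch* (277 CPM) and *Hcrt* (112 CPM). Whether these 2 came from the DMH or from tissue beside it was not tested. *Npvf* averaged 95.25 CPM in the DMH and 1.13 CPM in the VMH. Of 4 VMH markers set for this check, *Fezf1* and *Sox14* were measured, and *Fezf1* is no independent check, since it was chosen for its level there. *Sox14*, a transcription factor gene, averaged 11.2 CPM in the VMH, 4.84 in the ARC, 3.92 in the DMH and 0.0669 in the PVN. Its lowest VMH library, at 4.25 CPM, was below the highest library elsewhere, at 13.3 CPM.

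The genes lie on separate chromosomes, and the GENCODE M21 annotation places no other gene over any of them. *Fezf1* (ENSMUSG00000029697) is a short gene on the minus strand, at chr6:23245044-23248362 of GRCm38. *Zfp831* (ENSMUSG00000050600) is on the plus strand, at chr2:174643534-174710832. *Gpr149* (ENSMUSG00000043441) is on the minus strand, at chr3:62529077-62605140. Exons span 2409 bp in *Fezf1*, 9807 bp in *Zfp831* and 4288 bp in *Gpr149*, and this length matters when the genes are compared with each other.

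The promoter of *Fezf1* is shown because it belongs to the gene with the largest difference, and because it was the 1 of 3 promoters that matched by symbol in the RefSeq table used. It is the window chr6:23248215-23248514 of GRCm38.p6, minus strand, from 250 bases before to 50 bases after the start of transcription that RefSeq gives, which lies inside the gene as GENCODE M21 places it above, written 5′ to 3′. Capitals mark the CCAAT box motif, searched as CCAAT on both strands, so that a match on the other strand reads ATTGG.

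Fezf1 promoter: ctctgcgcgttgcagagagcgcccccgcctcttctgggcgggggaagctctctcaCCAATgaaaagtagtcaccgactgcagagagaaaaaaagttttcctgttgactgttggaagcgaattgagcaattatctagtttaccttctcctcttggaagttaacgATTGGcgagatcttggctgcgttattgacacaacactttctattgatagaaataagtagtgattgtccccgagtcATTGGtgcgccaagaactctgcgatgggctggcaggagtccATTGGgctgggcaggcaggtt

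The window held 4 matches to CCAAT, 1 on the strand of the gene and 3 on the other strand. At least 1 match was found in 37.4% of 32851 promoters of the same length, and 4 or more in 1.06% of them. The letters AAGGTCA, a partial site of the kind bound by steroidogenic factor 1, were not found in the window on either strand, and 4.72% of promoters held them. The TATA box letters TATAAA were also not found, against 13.6% of promoters with a match. These motifs do not overlap one another, and a match describes letters and not a bound site.

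*Fezf1* was the most VMH-enriched of the 10127 genes used here by this measure. Its level in the 11 VMH libraries was 172 CPM at the lowest, 230 at the median and 256 at the highest, with a mean of 219 ± 30.5 (SD, n = 11). The means elsewhere were 8.71 ± 5.91 CPM in the PVN (n = 10), 6.63 ± 2.20 in the DMH (n = 11) and 1.53 ± 2.10 in the ARC (n = 9). The VMH mean was thus 143-fold that of the ARC, 33.1-fold that of the DMH and 25.2-fold that of the PVN. The ARC mean includes ARC-313 at 6.83 CPM, and the ARC median was 0.608 CPM. The lowest VMH library stood 7.84-fold above the highest library of any other nucleus, PVN-86 at 21.9 CPM. On the log2(CPM + 0.5) scale, VMH minus the mean of the other nuclei was 5.70 ± 0.22 (SE).

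*Zfp831* was lower in the VMH and varied more from library to library. Its VMH libraries ran from 15.9 CPM in VMH-85 through a median of 61.4 to 94.4 in VMH-125, with a mean of 61.9 ± 21.6 (SD, n = 11). Means were 3.51 ± 2.39 CPM in the PVN (n = 10), 2.64 ± 3.38 in the ARC (n = 9) and 2.42 ± 1.75 in the DMH (n = 11). The VMH mean was 17.7-fold that of the PVN, 23.5-fold that of the ARC and 25.6-fold that of the DMH. The ARC mean includes the high library ARC-308. The medians were 2.94 CPM in the PVN, 2.61 in the DMH and 1.37 in the ARC. The gap between nuclei was narrow at the edge, since VMH-85 was only 1.44-fold above the highest library elsewhere, ARC-308 at 10.99 CPM. The log2 difference was 4.58 ± 0.32. *Zfp831* was listed at 0 in ARC-311 and DMH-86, where a count of 0 allows up to 1.21 and 1.13 CPM (3 reads in each library), a limit that covers counting error only.

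*Gpr149* lay between the others. It ranged from 60.6 CPM in VMH-86 through a median of 92.8 to 120.1 in VMH-311, with a mean of 90.8 ± 19.4 (SD, n = 11). Elsewhere it averaged 6.20 ± 2.87 CPM in the DMH (n = 11), 5.13 ± 3.83 in the ARC (n = 9) and 4.71 ± 3.22 in the PVN (n = 10). These were 14.7-fold, 17.7-fold and 19.3-fold below the VMH mean, and the lowest VMH library was 4.78-fold above the highest library of the other nuclei. The log2 difference was 4.21 ± 0.27. Just outside the 3 chosen genes came *Hmcn2*, an extracellular matrix gene, at 4.18 ± 0.32, followed by the muscarinic receptor gene *Chrm5* at 3.91. The step from the third to the fourth gene was thus far smaller than either SE.

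All 3 genes had a lowest VMH library above the highest library of every other nucleus, which held for 0.770% of genes in the table (78 of 10127). This follows from how the genes were chosen and is a description. Per kilobase of exon, the VMH mean was 91.1 CPM per kb for *Fezf1*, 21.2 for *Gpr149* and 6.32 for *Zfp831*. *Fezf1* thus kept the highest level of the 3 when length was allowed for. Within single VMH libraries the genes were not in a fixed proportion. The ratio of *Fezf1* to *Gpr149* CPM ran from 1.60 through a median of 2.35 to 3.595. That of *Fezf1* to *Zfp831* ran from 1.92 through a median of 3.82 to 12.7, the last in VMH-85. The coefficient of variation over VMH libraries was 13.9% for *Fezf1*, 21.4% for *Gpr149* and 34.95% for *Zfp831*. In captured tissue, fewer cells that express a gene and less RNA per cell cannot be told apart.

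**Figure D1:**
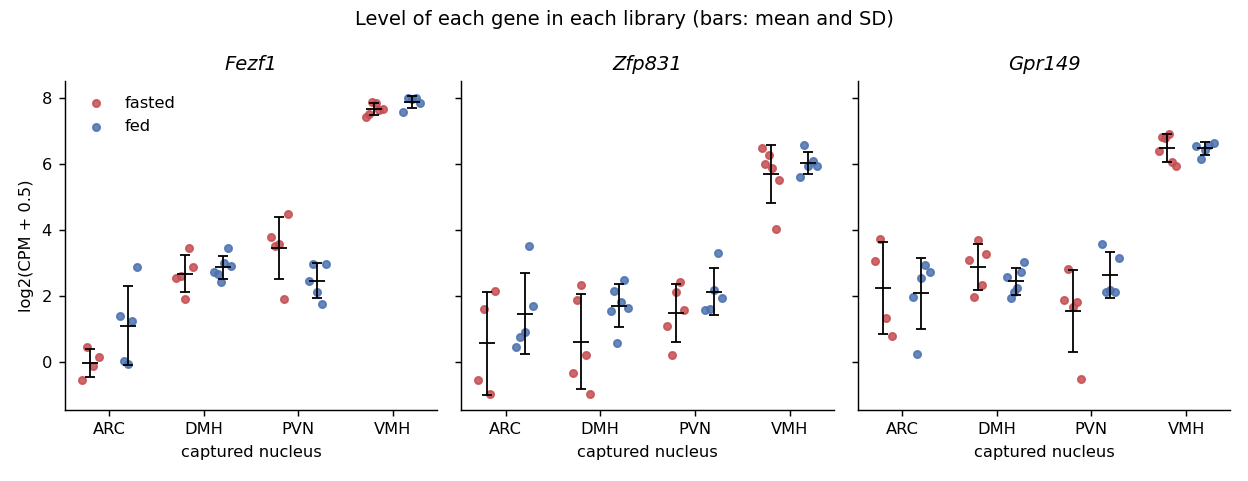
Level of *Fezf1*, *Zfp831* and *Gpr149* in each of 41 libraries, as log2(CPM + 0.5), by captured nucleus and nutritional state. Points are libraries and bars are the mean and SD of a group. The VMH libraries stand above all others in each panel, and VMH-85 is the low *Zfp831* point.

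The low levels outside the VMH were compared next, a contrast that had no part in the choice of genes. *Fezf1* differed between nuclei. It was at 0.70% of its VMH mean in the ARC, 3.02% in the DMH and 3.97% in the PVN. In the ARC, 8 of 9 libraries ran from 0.179 to 2.11 CPM, on 1 to 9 reads, and ARC-313 had 6.83 CPM on 43 reads. The DMH ran from 3.26 to 10.5 CPM and the PVN from 2.89 to 21.9. The ARC overlapped both nuclei through ARC-313 alone. *Fezf1* was higher in the DMH than in the ARC by 2.25 ± 0.28 on the log2 scale (SE; adjusted p = 2.78e-08, limma) and higher in the PVN than in the ARC by 2.45 ± 0.29 (adjusted p = 2.62e-09). The share of all genes that passed this test was 18.0% for DMH against ARC and 16.7% for PVN against ARC. With mouse as a replicate block, since the nuclei came from the same brains, the differences were 2.24 ± 0.29 and 2.43 ± 0.29. As the ARC values rest on few reads, the size depends on the pseudocount: from 0.1 to 2 CPM it went from 2.78 to 1.43 for DMH minus ARC and from 2.99 to 1.62 for PVN minus ARC, and both stayed called. DMH and PVN did not differ detectably, with a difference of 0.20 (95% interval -0.35 to 0.75, adjusted p = 0.709), in a contrast where 18.0% of genes passed. Leaving out 1 library moved PVN minus DMH between 0.07 (without PVN-86) and 0.42 (without PVN-311). The order of *Fezf1* was therefore VMH, then PVN and DMH without a detectable difference, then ARC.

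*Zfp831* and *Gpr149* had no such order among the other nuclei. *Zfp831* was at 5.67% of its VMH mean in the PVN, 4.26% in the ARC and 3.91% in the DMH. Its largest difference was PVN minus ARC, at 0.82 ± 0.41 (adjusted p = 0.223, limma). The other contrasts were 0.61 for PVN minus DMH (adjusted p = 0.350) and 0.21 for DMH minus ARC (adjusted p = 0.801). By mean CPM, which includes ARC-308 at 10.99 CPM, the ARC was instead above the DMH. By median it was below, at 1.37 against 2.61 CPM. The PVN minus ARC contrast was called when ARC-86 was left out, at 1.204 (adjusted p = 0.0382), and when libraries were weighted by quality, at 1.02 (adjusted p = 0.0541). *Gpr149* was at 6.82% of its VMH mean in the DMH, 5.65% in the ARC and 5.18% in the PVN. Its differences were 0.54 for DMH minus ARC (adjusted p = 0.347), -0.06 for PVN minus ARC (adjusted p = 0.954) and -0.60 for PVN minus DMH (adjusted p = 0.263). With 1 library left out, *Gpr149* DMH minus ARC was as low as 0.31 (without ARC-125), and PVN minus DMH was -0.33 without PVN-86. The 95% intervals of these 6 differences were wide, and reached 1.66 for *Zfp831* and -1.27 for *Gpr149*. At the low levels outside the VMH, a median of 9.5 reads per library for *Zfp831*, 20 for *Fezf1* and 22 for *Gpr149*, smaller differences were not detectable.

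**Figure D2:**
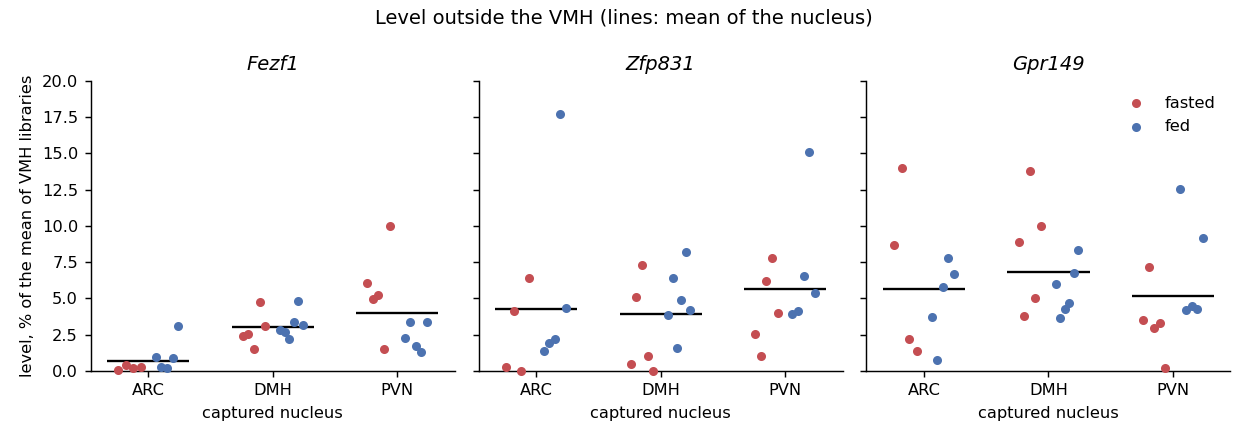
Level of each gene in the ARC, DMH and PVN libraries, as a percent of its mean over the 11 VMH libraries. Points are libraries and lines are means of a nucleus. *Fezf1* is lowest in the ARC, at a mean of 0.70%, and ARC-308 and PVN-308 stand out for *Zfp831* at 17.7% and 15.1%.

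The libraries with the highest levels outside the VMH were mostly not the same for the 3 genes. PVN-86 had the highest *Fezf1* of the PVN at 21.9 CPM, equal to 9.995% of the VMH mean, yet the lowest *Gpr149* of 10 PVN libraries, 0.189 CPM, which is 1 read. ARC-308 and PVN-308 had the highest *Zfp831* of their nuclei, at 10.99 and 9.36 CPM, while *Fezf1* in PVN-308 was the lowest of 10, at 2.89 CPM. *Gpr149* was highest in ARC-305, DMH-305 and PVN-111, at 12.7, 12.6 and 11.4 CPM. DMH-313 alone had the highest level of a nucleus for 2 of the genes, *Fezf1* at 10.5 CPM and *Zfp831* at 5.09 CPM. Correlations between the genes were then taken across libraries of 1 nucleus. Of 12 relations (3 pairs in 4 nuclei), Pearson's r ran from -0.64 to 0.47, 6 were positive, and none passed after adjustment. The strongest was negative, *Fezf1* with *Zfp831* over the 10 PVN libraries, with r = -0.64 (p = 0.0407, adjusted p = 0.488) and Spearman's rho = -0.68 (p = 0.0339, adjusted p = 0.407) in a 2-sided permutation test. It was -0.62 without the 2 libraries farthest from the median of *Fezf1*, and -0.62 on values centred on batch. Other values depended on few libraries: without the 2 farthest, *Fezf1* with *Zfp831* went from 0.47 to 0.88 in the ARC and from 0.23 to 0.70 in the VMH, and *Fezf1* with *Gpr149* went from -0.52 to -0.14 in the PVN.

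Whether fasting changed these genes was then tested in each nucleus, with batch as a covariate. In the VMH, where the genes are high, no change was found. *Fezf1* in 6 fasted libraries ran from 172 through a median of 203 to 235 CPM. The 5 fed libraries had 192.5 (VMH-111), 256 (VMH-125), 253 (VMH-127), 256 (VMH-308) and 233 CPM (VMH-313). The 2 groups overlapped, with the fed mean the higher at 238 ± 27.3 (SD, n = 5) against 204 ± 25.2 (SD, n = 6). Fasted minus fed was -0.21 ± 0.11 on the log2 scale (95% interval -0.44 to 0.03, adjusted p = 0.766, limma), in a comparison where 0.0208% of genes passed. Within batches 1, 2 and 3 the difference was 0.07, -0.53 and -0.07.

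*Zfp831* in fasted VMH libraries ran from 15.9 through a median of 60.5 to 89.8 CPM, and the fed libraries had 48.3 (VMH-111), 94.4 (VMH-125), 61.2 (VMH-127), 67.0 (VMH-308) and 61.4 CPM (VMH-313). The fed range lay wholly inside an interval spanned by fasted libraries except for VMH-125. Fasted minus fed was -0.19 ± 0.24 (95% interval -0.68 to 0.30, adjusted p = 0.942), and 0.02 without the libraries of batch 1. Within batches 1, 2 and 3 it was -0.83, -0.01 and 0.06. *Gpr149* ran from 60.6 through 96.8 to 120.1 CPM in fasted VMH libraries, and the fed libraries had 92.8, 71.1, 86.2, 95.9 and 98.9 CPM in the same order of mice. All fed values fell within the fasted range. The difference was 0.07 ± 0.16 (95% interval -0.26 to 0.40, adjusted p = 0.975), and -0.54, 0.32 and 0.23 within the batches.

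In the other nuclei, fasted and fed libraries also overlapped for each gene, and no difference passed. The smallest p before adjustment was that of *Fezf1* in the PVN, although *Zfp831* and *Gpr149* had larger differences in some nuclei. The fasted libraries had 13.3 (PVN-100), 10.9 (PVN-101), 11.4 (PVN-305), 3.23 (PVN-311) and 21.9 CPM (PVN-86), and the fed libraries had 4.89 (PVN-111), 7.37 (PVN-125), 3.81 (PVN-127), 2.89 (PVN-308) and 7.38 CPM (PVN-313). Thus 4 of 5 fasted libraries were above all fed libraries, and PVN-311 lay among them. Fasted minus fed was 1.00 ± 0.45 (95% interval 0.06 to 1.94, adjusted p = 0.485, limma), in a comparison where 0.367% of genes passed. It was 2.06, 1.10 and 0.37 within batches 1, 2 and 3. With 1 library left out it ran from 0.74, without PVN-86 or PVN-111, to 1.36, without PVN-311 (adjusted p = 0.334). The summed PVN markers *Avp* and *Crh* ran from 590 to 1600 CPM in fasted and from 426 to 1289 CPM in fed PVN libraries, and their part in this value was not tested. *Zfp831* and *Gpr149* had differences of the opposite sign in the PVN, at -0.65 ± 0.49 (adjusted p = 0.724) and -1.10 ± 0.58 (adjusted p = 0.556). The second was -0.35 without PVN-86 or without PVN-111, the fasted and fed libraries of batch 1, and -1.44 without PVN-101.

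In the DMH, fasted minus fed was -0.18 ± 0.42 for *Fezf1* (adjusted p = 0.973), -1.20 ± 0.64 for *Zfp831* (adjusted p = 0.785) and 0.51 ± 0.43 for *Gpr149* (adjusted p = 0.878, limma), where 0.0103% of genes passed. The *Gpr149* value went as low as 0.31 without DMH-305 and as high as 0.70 without DMH-311. *Zfp831* there had 0, 0.278, 0.648, 3.16 and 4.52 CPM in the fasted libraries, against 0.964 to 5.09 in the 6 fed libraries. The lowest 3 libraries were fasted, and the other fasted libraries lay within the fed range. Its difference was -0.74 without DMH-86, where it was listed at 0, and ran from -1.93 to -0.60 with pseudocounts of 0.1 and 2. In the ARC, where 0.176% of genes passed, *Fezf1* was below the filter on low values and was not tested. Its fasted libraries had 0.179, 0.402, 0.608 and 0.846 CPM, and its fed libraries had 0.456, 0.508, 1.87, 2.11 and 6.83 CPM, which overlap. *Zfp831* differed by -1.09 ± 0.77 in the ARC (adjusted p = 0.711) and *Gpr149* by 0.12 ± 0.66 (adjusted p = 0.975). The *Zfp831* value was -1.93 without ARC-86 and -0.40 without ARC-311, and ran from -1.81 to -0.57 with the same pseudocounts. The response to fasting was also compared between nuclei. *Fezf1*, which was lower in fasted VMH and higher in fasted PVN without passing in either, gave an adjusted p of 0.776 (0.00477 before adjustment) in limma's F-test of the difference, against 0.988 for *Zfp831* and 0.944 for *Gpr149*. The F-test passed 0% of 10121 genes, and 522 had an unadjusted p under 0.05.

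**Figure D3:**
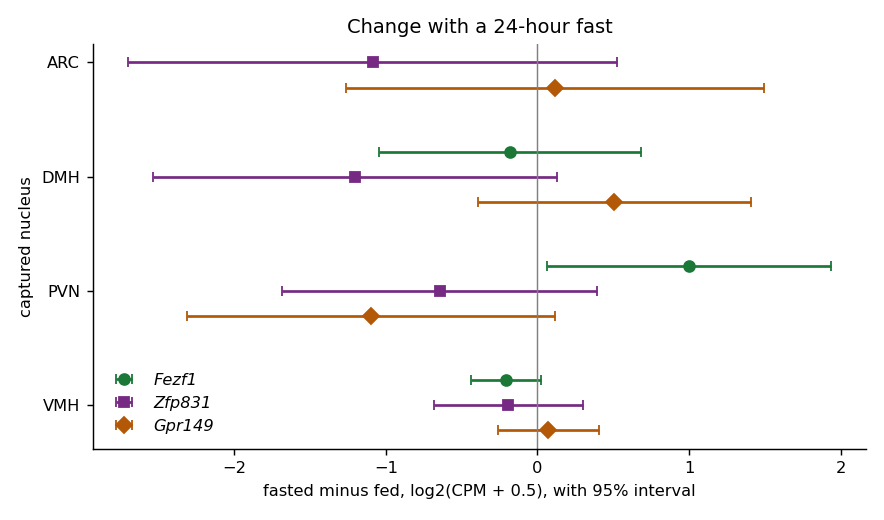
Fasted minus fed level of each gene in each nucleus, on the log2(CPM + 0.5) scale, with its 95% interval. *Fezf1* in the ARC was not tested. The intervals are narrowest in the VMH, and only that of *Fezf1* in the PVN, 0.06 to 1.94, leaves out 0, with an adjusted p of 0.485.

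The spread of *Zfp831* in the VMH went with batch, a comparison chosen after its values were seen. The batch numbers are read here as the batches of laser capture and library preparation that the study's methods describe. The 3 libraries of batch 1 had 15.9 (VMH-85), 45.3 (VMH-86) and 48.3 CPM (VMH-111), and the 8 libraries of batches 2 and 3 ran from 57.7 to 94.4 CPM. The groups did not overlap, and how many of all genes separated by batch in this way was not counted. Batch 1 was lower by 1.06 ± 0.27 on the log2 scale (adjusted p = 0.0117, limma). This call rests on VMH-85, without which the difference was -0.58 ± 0.22 (adjusted p = 0.102), and it held with any other VMH library left out. In all, 8.46% of genes were called lower in batch 1 of the VMH in the same way. *Gpr149* had 66.4, 60.6 and 92.8 CPM in batch 1 and 71.1 to 120.1 CPM in the others, a difference of -0.43 ± 0.18 (adjusted p = 0.144), which was -0.73 ± 0.20 and called without VMH-111 (adjusted p = 0.0420). *Fezf1* had 201, 205 and 192.5 CPM against 172 to 256, a difference of -0.14 ± 0.13 (adjusted p = 0.546). Without VMH-111 it was 0.001 ± 0.15 (adjusted p = 0.998). With all libraries, *Zfp831* was the 1 of 3 genes that was called. Some marker lists of other cells moved with the same batch. The summed level of 5 of 6 microglia markers was 107.8 to 145.5 CPM in batch 1 and 60.7 to 99.0 in the others, and that of 4 of 5 oligodendrocyte markers was 982 to 1268 against 632 to 894.5, both without overlap. Astrocyte markers (177 to 251 against 129 to 227 CPM), endothelial markers (83.2 to 131 against 75.3 to 110) and markers of tanycytes and ependyma (5.86 to 18.9 against 3.72 to 16.5) overlapped between batch 1 and the others. None of these markers was at 0 as a mean, and their part in the level of *Zfp831* was not tested.

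**Figure D4:**
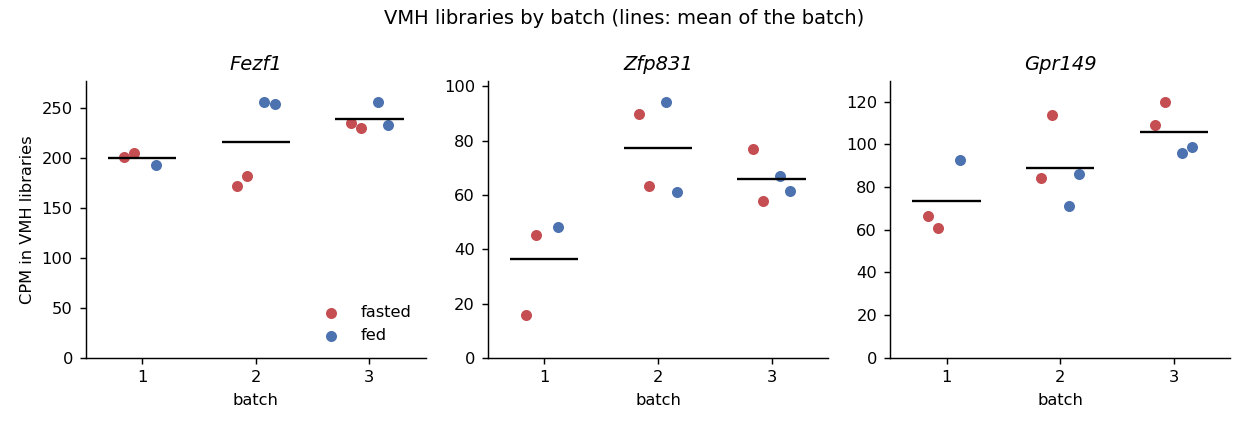
CPM of each gene in the 11 VMH libraries by batch, with fasted and fed libraries in separate colours and a line at each batch mean. The 3 batch 1 libraries have the lowest *Zfp831*, 15.9 to 48.3 CPM, while *Fezf1* in batch 1 lies within the range of the other libraries.

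Other genes known from the VMH were drawn up as a list of 27, of which 17 were measured. The list was made with earlier results of these data known, so its direction is no independent evidence. Against the mean of the other nuclei, 14 of the 17 were called higher in the VMH, 1 was called lower and 2 were not called, where 4.06% of all genes were called higher and 3.72% lower. The median log2 difference was 2.01 over the list and -0.02 over all genes. Each of the 17 had a smaller difference than *Gpr149*, which follows from the choice of the 3 genes, since all 17 had a VMH mean above 5 CPM. Among receptors, the cholecystokinin B receptor gene *Cckbr* was higher by 3.65 (33.5 against 3.73 CPM) and the cannabinoid receptor gene *Cnr1* by 2.05 (288 against 78.2 CPM). Among transcriptional regulators, *Sox14* was higher by 2.40 and the LIM-domain binding gene *Ldb2* by 1.55. The glutamate transporter gene *Slc17a6*, a marker of glutamatergic neurons, was higher by 1.59 (581 against 224 CPM).

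Among secreted proteins and peptides, the synaptic genes *Nptx2* and *Cbln1* were higher by 2.92 and 2.79, the neurotrophin gene *Bdnf* by 2.01 and the tachykinin gene *Tac1* by 1.04. *Gda*, which encodes guanine deaminase, was higher by 2.94 (510 against 67.5 CPM), and *Lbhd2*, *Arpp21*, *Cdh4* and *Amigo2* by 3.35, 2.11, 2.01 and 1.38. *Dlk1*, which encodes a Notch-related transmembrane protein, was lower in the VMH by 2.65 on the log2 scale (108 against 647 CPM, adjusted p = 2.29e-25, limma). The leptin receptor gene *Lepr* and *Hpcal1* differed by -0.12 and -0.06. In 8 of the 17 genes the lowest VMH library was above the highest library elsewhere (0.770% of all genes), namely *Arpp21*, *Cdh4*, *Cnr1*, *Gda*, *Nptx2*, *Lbhd2*, *Ldb2* and *Cbln1*. Fasting called 0 of the 17 in the VMH with limma, and 2, *Amigo2* and *Tac1*, had an unadjusted p under 0.05. Of all 9594 genes tested there, 0.0208% were called and 670 had an unadjusted p under 0.05.

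**Figure D5:**
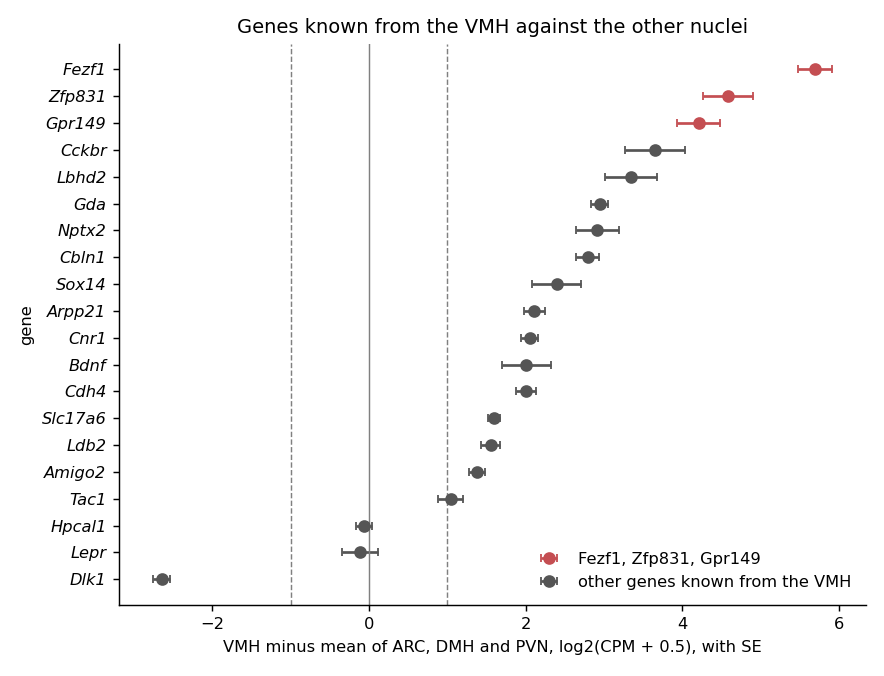
Log2 difference between the VMH and the mean of the ARC, DMH and PVN, with its SE, for *Fezf1*, *Zfp831* and *Gpr149* (chosen for this value) and for 17 other genes known from the VMH. Dashed lines mark the size needed for a call. *Cckbr* comes next at 3.65, and *Dlk1* lies on the other side at -2.65.

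The genes whose pattern over the 41 libraries was most like that of each gene were taken by Pearson's r on the log2(CPM + 0.5) scale, among 10017 genes. For *Fezf1* they were *Ncdn* (r = 0.92), *Cbln1* (0.91), *Nsf* (0.90), *Thy1* (0.90) and *Arpp21* (0.90), the first encoding a neuronal protein of neurites and *Nsf* an ATPase of membrane fusion. For *Zfp831* they were *Gda* (0.88), the LIM-domain gene *Lmo3* (0.87), the microtubule-associated *Map1b* (0.86), the calcium channel subunit gene *Cacna2d1* (0.84) and *Cnr1* (0.84). For *Gpr149* they were *Gda* (0.91), *Camkv* (0.89), the cadherin gene *Cdh13* (0.88), *Tenm2* (0.88) and *Hmcn2* (0.88). Some of these are abundant in all nuclei. *Nsf* had 792 CPM in the VMH and 468 CPM elsewhere, and *Map1b* 6081 and 4333. Among themselves, the 3 genes had r = 0.84 (*Fezf1* with *Zfp831*), 0.83 (*Fezf1* with *Gpr149*) and 0.81 (*Zfp831* with *Gpr149*) over all libraries. The same pairs had r = 0.23, 0.06 and 0.40 within the VMH (-0.03, -0.53 and -0.01 on values centred on batch) and 0.17, -0.01 and -0.03 over the 30 other libraries. For the 3 genes among themselves, r was thus lower within either set of libraries than over all. For the 5 genes most like *Fezf1*, r with it ran from 0.50 to 0.76 over the 30 other libraries and from -0.67 to 0.09 within the VMH. For those most like *Zfp831*, r ran from 0.07 to 0.46 over the other libraries and from 0.22 to 0.62 within the VMH. For those most like *Gpr149*, it ran from 0.22 to 0.44 and from -0.64 to 0.28. Libraries share nucleus and mouse, so these r values are a description.

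The nearest measured genes on either side were also looked up. Beside *Fezf1*, the lysine-degrading enzyme gene *Aass* lay 112 kb away with 3.69 CPM in the VMH and 2.54 elsewhere, and the sulfate transporter gene *Slc13a1* lay 840 kb away with 10.6 and 9.79 CPM. Beside *Zfp831*, the predicted gene *Gm20721* lay 297 kb away with 954 CPM in the VMH and 1456 elsewhere, and *Gm14399* lay 419 kb away with 7.14 and 6.60 CPM. Beside *Gpr149*, the guanine nucleotide exchange factor gene *Arhgef26* lay 66.9 kb away with 34.3 and 32.7 CPM, and the phospholipase C gene *Plch1* lay 1091 kb away with 5.89 and 19.6 CPM. Of these 6, 0 were called higher in the VMH, where 4.06% of all genes were, so the count is near the background. *Plch1* was called lower, as were 3.72% of all genes, by 1.5 on the log2 scale with an adjusted p of 1.92e-06 in limma.

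Markers of glial and vascular cells were also set beside the 3 genes. Oligodendrocyte markers (*Mbp*, *Mog*, *Mag* and *Mobp*) summed to 632 to 1268 CPM in VMH libraries, against 153 to 433 in the ARC, 294.5 to 1077 in the DMH and 234 to 447 in the PVN, and so were also high in the VMH. Their part in the level of the 3 genes was not tested. Astrocyte markers (3 of 6 measured) averaged 180 CPM in the VMH and 107 to 223 in the other nuclei, microglia markers 93.9 and 77.3 to 93.8, endothelial markers (4 of 6) 96.0 and 68.6 to 222, and markers of tanycytes and ependyma (2 of 5) 11.2 and 9.29 to 37.1. In VMH libraries the oligodendrocyte sum overlapped between fasted mice, at 779 to 1097 CPM, and fed mice, at 632 to 1268 CPM.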

How the data were processed

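RNA was measured in laser-captured nuclei of fasted and fed *Snord116* deletion mice. Per the study's methods, the authors amplified captured RNA with an Ovation kit, sequenced single-end reads, mapped them to GRCm38 with TopHat, and left out outlier libraries, which can lower the spread. The authors used edgeR and limma for their own tests. The submitters' processing notes name TopHat2 2.0.11 and Cufflinks 2.2.1. The use of strand is not given in the sources used here. The authors deposited CPM, counts scaled to a common total, per Ensembl gene. Of 43 samples, 41 were matched to a column, 2 were not analysed here, and 2 columns that matched no sample were not used. CPM summed to 554896 to 689010 per library because a range of identifiers was not used here.

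Depth was read from low values, 97.8% to 98.8% of which were whole multiples of 1 read within 0.1. Since 101 genes had positive values under 0.01 CPM, no count test was run. Reads of amplified RNA are not independent molecules. Values were tested as log2(CPM + 0.5), which understates changes of low genes, with limma 3.58.1 in R 4.3.3 (eBayes with trend, 2-sided, Benjamini-Hochberg, adjusted p under 0.1 as in the study). Fasted and fed libraries were compared within each nucleus with batch as covariate, among genes at 1 CPM or more in at least the number of libraries of the smaller group. Nuclei were compared in a single fit with 8 group means plus batch, and VMH calls also needed a log2 difference of at least 1. The fits were tested on simulated data. Correlations used permutation tests (100000 resamples, exact in the ARC). Nuclei of 1 mouse number are read as 1 brain. The median correlation of residuals between libraries of the same number was -0.05 over 57 pairs, against -0.06 for 51 other pairs.

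The members and gene lists were chosen with earlier results of these data known, and 1 gene of the VMH list and 1 marker are not reported here. Named genes were the 3 genes, the measured genes of the VMH list, the nearest measured gene on each side, the 5 genes most alike in pattern (mean of at least 1 CPM), and markers. *Hmcn2* and *Chrm5* were named as the next genes in rank. Alternatives were pseudocounts of 0.1 and 2, no filter and a filter at 5 CPM, no batch, upper-quartile scaling, library weights, 1 fit over all libraries for fasting, the replicate block and each library left out. Leaving out batch 1, and the comparison of batches in the VMH with each library left out, were added after seeing the data. Promoters came from RefSeq (GRCm38.p6) by symbol.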

Additional observations from a re-analysis of the deposited data

Results flagged for a closer look

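In 24 groups of a gene, nucleus and state with 4 to 6 libraries, 3 held a library far from the others by Dixon's test. For normally distributed values, chance gives about 1 in 20 groups, or 1.2 here. The test was run on CPM, which at low levels need not be so distributed, so chance may give more. All 3 were fed libraries outside the VMH. *Fezf1* was 6.83 CPM in ARC-313, while the other 4 fed ARC libraries had 0.456 to 2.11 CPM. *Zfp831* was 10.99 CPM in ARC-308 (53 reads) against 0.844 to 2.70 in the others, and 9.36 CPM in PVN-308 (68 reads) against 2.45 to 4.05. Both *Zfp831* libraries came from the same mouse, whose DMH had 3.04 CPM and whose VMH had 67.0 CPM of *Zfp831*, within the range of the other mice. *Gpr149* in the same mouse was 7.05 CPM in the ARC and 3.86 CPM in the PVN.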

How the results depend on the processing

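Of 832 recomputed values, 811 were counted as the same, 15 changed sign, 4 moved and 2 newly passed. For tested values, the same meant the same direction and side of the threshold. For VMH minus the other nuclei, which was not tested, it meant a shift smaller than the SD over VMH libraries. For the VMH list it meant a similar number of genes called higher. Pseudocounts of 0.1 and 2 changed *Fezf1* from 2.78 to 1.43 for DMH minus ARC and from 2.99 to 1.62 for PVN minus ARC, both called throughout. The VMH difference of *Fezf1* was 5.96 with a pseudocount of 0.1 and 5.14 with 2, and with 2 it was 3.83 for *Zfp831* and 3.78 for *Gpr149*, since a larger pseudocount lifts the low levels elsewhere. *Zfp831* in PVN minus ARC was 1.02 (adjusted p = 0.0541, limma) with library weights, and 0.49 to 1.204 with 1 library left out, where it passed without ARC-86; the cause was not tested. Values that changed sign were never past the threshold. With 1 library left out, *Zfp831* ranged from -0.11 to 0.62 for DMH minus ARC, and *Gpr149* from -0.29 to 0.20 for PVN minus ARC. For fasted minus fed they ranged from -0.31 to 0.0217 for *Zfp831* and -0.0257 to 0.28 for *Gpr149* in the VMH, -0.35 to 0.0889 for *Fezf1* in the DMH and -0.58 to 0.62 for *Gpr149* in the ARC. Without batch 1, an alternative chosen after seeing the data, *Zfp831* was 0.0217 in the VMH. The replicate block (mouse) changed no call of the 3 genes between nuclei. *Fezf1* was at 2.24 for DMH minus ARC and *Zfp831* at 0.79 for PVN minus ARC. The block was not run for the VMH list and could not be fitted for fasting, since a mouse had 1 state. The VMH list had 13 to 14 genes called higher. *Fezf1* in the ARC had a fasting value only without the filter on low values (-1.33 ± 0.57, adjusted p = 0.615), in the fit over all libraries (-1.17 ± 0.42, adjusted p = 0.455) and with 1 fasted library left out, and some low genes gave no value with a filter at 5 CPM. Outside the VMH, *Zfp831* had a median of 9.5 reads per library, against 245 in the VMH.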
